A study of Mus musculus with 9 samples.

Results

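Metallothioneins and genes of zinc transport were followed in the mouse retina after retinal vein occlusion (RVO). The genes were Mt1, Mt2, Mt3, Mtf1, Slc30a1 and Slc39a14, which are 6 of the 48679 names in the table of read counts. They were chosen by symbol, with earlier results of these data known, and all 6 passed the filter on low counts in each comparison. RNA was sequenced from 9 samples of C57BL/6J mice aged 12 weeks, and each sample pooled 6 retinas of 6 mice. For RVO, all veins of an eye were laser-treated after an intraperitoneal injection of eosin Y as photosensitizer. The fellow eyes of these mice were laser-treated by the same scheme, but between the large vessels, and served as control laser-treated eyes. The laser-treated eyes had 3 samples per group, taken at d2 (2 days after laser treatment), and 3 further samples came from untreated eyes of mice without laser treatment. Control eyes therefore carried laser burns and, as the injection was systemic, had also been exposed to eosin Y, which untreated eyes had not. Since n counts pools and not mice, p-values measure the spread between pools.

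Metallothioneins are small, cysteine-rich proteins that bind zinc and copper and react with oxidants. Mt1 and Mt2 are expressed in many tissues, in the retina also in glia, and respond to metals, glucocorticoids and inflammatory signals, whereas Mt3 is known mainly from nervous tissue. Free zinc is sensed by the transcription factor MTF-1, the product of Mtf1, which binds metal response elements in the promoters of Mt1, Mt2 and Slc30a1. Slc30a1 encodes ZnT1, which exports zinc through the plasma membrane, and Slc39a14 encodes ZIP14, which imports zinc and also iron and manganese.

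The Mt genes lie side by side on chromosome 8 (build GRCm38), all on the plus strand and within 27721 bases. Mt3 (chr8:94152607-94154146) comes first, Mt2 (chr8:94172664-94173568) follows after a gap of 18517 bases, and Mt1 (chr8:94179082-94180327) after a further 5513 bases. Mtf1 is at chr4:124802104-124849800 on the plus strand, Slc30a1 at chr1:191906767-191913247 on the plus strand and Slc39a14 at chr14:70303469-70351425 on the minus strand. RefSeq promoter windows (GRCm38.p6, 300 bases each, of which the last 50 follow the start in RefSeq) were found for 5 of the 6 genes, all but Slc39a14. The RefSeq starts differ from the GENCODE gene starts given above, so that the window of Mtf1 lies inside the GENCODE gene and that of Mt2 ends just after its start. The windows were searched on both strands for TGCACNC and TGCGCNC, the letters of the metal response element core. The windows of the metallothioneins and of Slc30a1 are shown because they held such letters, which are in capitals. A match on the minus strand appears as its reverse complement, and no matches overlapped in these windows.
Mt1 (chr8:94178839-94179138, plus strand): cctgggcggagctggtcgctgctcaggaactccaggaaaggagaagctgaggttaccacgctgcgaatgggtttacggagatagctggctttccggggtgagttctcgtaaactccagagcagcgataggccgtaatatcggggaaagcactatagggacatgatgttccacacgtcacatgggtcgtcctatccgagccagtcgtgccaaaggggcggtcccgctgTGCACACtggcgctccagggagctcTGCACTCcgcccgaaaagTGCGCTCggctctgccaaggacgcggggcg
Mt2 (chr8:94172368-94172667, plus strand): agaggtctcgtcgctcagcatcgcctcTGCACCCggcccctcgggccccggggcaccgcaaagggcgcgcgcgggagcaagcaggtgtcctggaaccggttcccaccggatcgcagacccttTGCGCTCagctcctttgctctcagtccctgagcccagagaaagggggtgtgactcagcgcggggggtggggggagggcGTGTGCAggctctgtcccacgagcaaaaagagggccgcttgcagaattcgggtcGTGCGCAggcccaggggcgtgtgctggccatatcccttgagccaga
Mt3 (chr8:94152357-94152656, plus strand): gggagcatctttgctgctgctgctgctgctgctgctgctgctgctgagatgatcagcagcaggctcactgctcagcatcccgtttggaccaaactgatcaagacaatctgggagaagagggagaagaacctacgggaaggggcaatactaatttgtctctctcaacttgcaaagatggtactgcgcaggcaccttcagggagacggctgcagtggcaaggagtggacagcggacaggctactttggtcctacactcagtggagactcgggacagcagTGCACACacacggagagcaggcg
Slc30a1 (chr1:191906531-191906830, plus strand): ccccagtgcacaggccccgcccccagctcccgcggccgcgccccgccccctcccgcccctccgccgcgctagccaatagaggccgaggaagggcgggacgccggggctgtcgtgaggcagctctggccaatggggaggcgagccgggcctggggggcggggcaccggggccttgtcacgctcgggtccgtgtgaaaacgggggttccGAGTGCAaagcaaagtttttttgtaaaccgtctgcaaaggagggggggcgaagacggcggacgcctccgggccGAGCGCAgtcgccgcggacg
There were 4 matches in the window of Mt2, 3 in that of Mt1, 2 in that of Slc30a1 and 1 in that of Mt3, whereas the window of Mtf1 had 0. Among all 32851 windows of the same length, 25.7% held at least 1 match, 7.11% at least 2, 1.97% at least 3 and 0.517% at least 4. A match describes the letters of the window and was not tested for binding. Bases outside the windows, upstream or downstream, were not searched, so the numbers of matches are not those of whole promoters.

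Untreated samples had 12377572 to 15245869 counts in total, control samples 18897218 to 23419497 and RVO samples 21022997 to 28993921. Levels are given as CPM, the count per 1e6 counts of the sample after scaling by edgeR's TMM factors, which were 0.890 to 0.918 in the untreated and 1.02 to 1.08 in the laser-treated samples. Replicates differed by more than the sampling noise, and the largest difference within a group was that between RVO replicates 1 and 2, with a chi-square of 59.5 per degree of freedom where the other pairs had 3.34 to 32.1. The labelled tissue was borne out by rod markers, whose summed level was 81072 to 82916 CPM in untreated, 51961 to 63616 CPM in control and 41865 to 45840 CPM in RVO eyes. In the same order of groups, summed levels were 4335 to 4584, 2679 to 3303 and 1525 to 2290 CPM for 6 markers of Mueller glia, 92.0 to 139.3, 47.9 to 56.2 and 30.7 to 50.9 CPM for 5 of microglia, 3.83 to 5.00, 25.7 to 37.9 and 61.7 to 76.0 CPM for 6 of monocytes and macrophages, and 0.0782 to 0.214, 5.11 to 17.2 and 33.0 to 83.1 CPM for 6 of neutrophils. Summed lens markers were 1.501 to 15.1, 130 to 1782 and 119 to 3256 CPM, and erythroid markers 14.5 to 15.01, 28.6 to 31.2 and 49.7 to 196.6 CPM. Between RVO and untreated eyes, 5 of 6 monocyte and macrophage markers rose at an adjusted p under 0.01 in edgeR. So did all 3 of the 6 neutrophil markers that could be tested. Apart from Lyz2, these tested markers had 0 to 7 counts per untreated sample and passed the filter on low counts only through RVO eyes. At the same threshold 6 of 6 rod, 3 of 6 Mueller glia and 3 of 5 microglia markers fell. Over all genes tested, 27.4% rose and 24.6% fell. Of the blood cell markers, Ly6c2, Ly6g, Cxcr2 and Retnlg had 0 counts in untreated eyes. The part of these cell types in the results below was not tested, and fewer cells of a type and less RNA per cell cannot be told apart in bulk tissue.

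Mt1 was the most abundant of the 6 genes. Its level was 69.7, 61.0 and 63.7 CPM in the untreated samples, 195.6, 290.6 and 261.8 CPM in the control samples and 309.4, 368.8 and 364.7 CPM in the RVO samples. The groups did not overlap, with untreated eyes lowest, RVO eyes highest and control replicate 1 the lowest of the laser-treated samples. The mean was 64.8 ± 4.46 CPM in untreated, 249 ± 48.7 CPM in control and 348 ± 33.2 CPM in RVO eyes (SD, n = 3 pools each). Compared with untreated eyes, Mt1 rose 5.48-fold in RVO eyes, a log2 fold change of 2.45 (standard error, SE, of 0.09; Benjamini-Hochberg adjusted p = 2.24e-06 in edgeR), and 3.90-fold in control eyes, a log2 fold change of 1.96 (SE 0.12, adjusted p = 1.16e-07).

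Mt2 had a lower level than Mt1 and larger fold changes. It was measured at 10.5, 12.4 and 13.9 CPM in untreated samples, from 115, 158 and 194 counts. The control samples had 51.2, 84.7 and 72.0 CPM, and the RVO samples had 108.9, 109.6 and 108.9 CPM. Again the groups did not overlap, and RVO samples were nearly equal whereas control samples spread widely around their mean of 69.3 ± 16.9 CPM (SD, n = 3). Mt2 rose 9.09-fold in RVO eyes (log2 fold change 3.18, 95% confidence interval 2.94 to 3.43, edgeR's adjusted p = 1.28e-06) and 5.70-fold in control eyes (log2 fold change 2.51, interval 2.14 to 2.88, adjusted p = 1.92e-07), both against untreated eyes. When the trend of each sample with exon length and GC content was removed, these folds were 5.59 and 3.76 and both stayed past the threshold. On the opposite strand of Mt2 lies the annotated gene Gm45774, which shares 45.9% of the 50-base stretches of Mt2 and is not among the names in the table of read counts. The paper describes strand-specific libraries. Reads of the pair may still not be separable if strand was not used in counting.

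Mt3 is the metallothionein known from neurons. Its level was 15.4, 12.4 and 18.0 CPM in untreated, 21.6, 23.0 and 25.3 CPM in control and 16.3, 23.1 and 22.8 CPM in RVO samples. Control samples all lay above untreated samples, while RVO replicate 1 fell within the untreated range. Mt3 in control eyes exceeded its untreated level 1.54-fold (log2 fold change 0.62, SE 0.12, edgeR's adjusted p = 0.000634), but with the trend of length and GC content removed its log2 fold change turned to -0.24 (adjusted p = 0.0712). In RVO eyes the log2 fold change against untreated eyes was 0.47 (interval 0.06 to 0.88, edgeR's adjusted p = 0.0466), it ranged from 0.33 (adjusted p = 0.169) without untreated replicate 2 to 0.63 (adjusted p = 0.00835) without RVO replicate 1, and it turned to -0.42 (adjusted p = 0.0452) with that trend removed. The principal transcripts of Mt1, Mt2 and Mt3 are short, with 549, 511 and 536 bases. The trend was instead taken on total exon length, which is 1246, 588 and 1066 bases for Mt1, Mt2 and Mt3. The GC content used was that of the longest transcript, with 52.9%, 55.6% and 62.3%. The direction of Mt3 thus depended on how length and GC content were treated, whereas Mt1 and Mt2 were higher with and without this step.

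Mtf1, the gene of the zinc sensor, was not called in any comparison. It was measured at 51.4, 48.6 and 52.8 CPM in untreated, 52.0, 50.4 and 50.0 CPM in control and 52.9, 50.4 and 51.3 CPM in RVO samples. All groups overlapped. The log2 fold change was 0.05 in RVO eyes (interval -0.12 to 0.22, edgeR's adjusted p = 0.577) and 0.01 in control eyes (interval -0.12 to 0.15, adjusted p = 0.846) relative to untreated eyes.

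Slc30a1, the zinc exporter of the plasma membrane, was measured at 43.0, 41.8 and 42.0 CPM in untreated, 42.8, 44.8 and 43.0 CPM in control and 51.2, 51.3 and 49.2 CPM in RVO samples. RVO samples lay above all others, and control and untreated samples overlapped. In RVO eyes Slc30a1 rose 1.22-fold over untreated eyes (log2 fold change 0.29, interval 0.13 to 0.45, edgeR's adjusted p = 0.00639). This call was lost when any of the 6 samples other than RVO replicate 2 was left out, with log2 fold changes of 0.27 to 0.32 and adjusted p-values of 0.0155 to 0.0378. In control eyes the log2 fold change was 0.06 (interval -0.08 to 0.20, edgeR's adjusted p = 0.411).

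Slc39a14, the importer of zinc, iron and manganese, was measured at 26.8, 29.0 and 29.0 CPM in untreated, 41.8, 46.5 and 41.6 CPM in control and 55.5, 49.1 and 55.4 CPM in RVO samples. The groups did not overlap, and RVO replicate 2 was the RVO sample nearest to the control samples. Slc39a14 rose 1.93-fold in RVO eyes (log2 fold change 0.95, SE 0.09, edgeR's adjusted p = 5.53e-05) and 1.55-fold in control eyes (log2 fold change 0.63, SE 0.08, adjusted p = 1.43e-05) over untreated eyes.

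**Figure D1:**
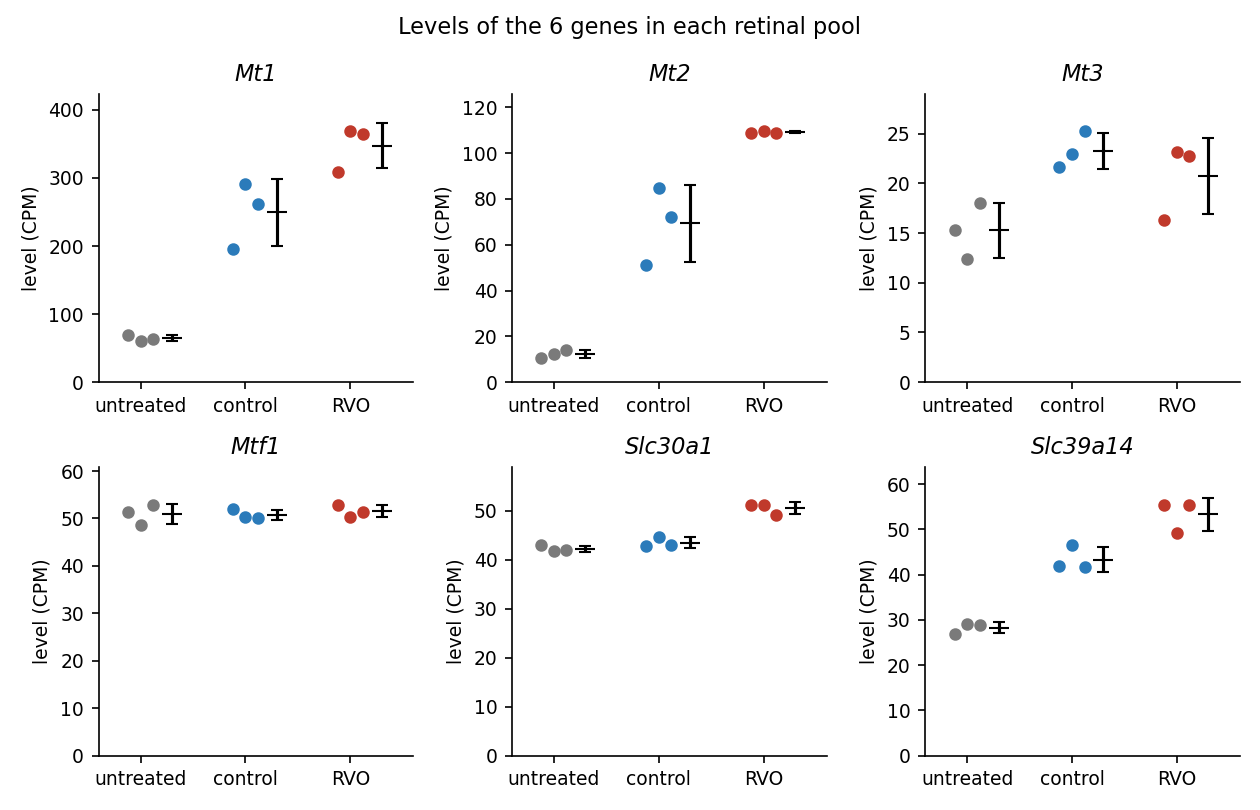
Levels of the 6 genes in CPM (vertical axes, each starting at 0) in untreated, control and RVO eyes; points are pools, and the bars beside them give the mean and SD of 3 pools. Mt1, Mt2 and Slc39a14 form separate ranges in the 3 groups, for Mt2 with means of 12.2, 69.3 and 109.1 CPM, whereas the ranges of Mtf1 overlap.

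The plot of levels by pool shows the distances between the groups gene by gene. Counted over the genes, 4 of 6 were differentially expressed between RVO and untreated eyes at an adjusted p under 0.01, all of them higher: Mt1, Mt2, Slc30a1 and Slc39a14. Of all 16380 genes tested in this comparison 52.1% were called, 27.4% as higher and 24.6% as lower, and groups did not overlap for 73.4%, so that calls and separated groups were also common among genes in general. This split over all genes depended on the scaling, with 4492 of 8529 calls higher here, 5967 of 8708 with library sizes as the only scaling and 3110 of 6999 with the length and GC trend removed. Between control and untreated eyes 4 of 6 were called as higher, namely Mt1, Mt2, Mt3 and Slc39a14, where Mt3 turned to lower values without a call once the length and GC trend was removed. Of 16066 genes 52.4% were called there, 27.2% as higher and 25.2% as lower, and groups did not overlap for 70.0%. There 4371 of 8416 calls were higher, 5902 of 8386 with library sizes only and 2324 of 6264 with that trend removed. The median log2 fold change of the 6 genes was 0.71 in RVO and 0.63 in control eyes, beside 0.01 over all genes tested in either comparison. Both comparisons used the same untreated samples.

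RVO and control eyes were compared directly to ask what vein occlusion added to the laser treatment. Mt2 in RVO eyes exceeded its level in control eyes 1.58-fold (log2 fold change 0.66, interval 0.28 to 1.04, edgeR's adjusted p = 0.0216) and Mt1 did so 1.40-fold (log2 fold change 0.48, interval 0.14 to 0.82, adjusted p = 0.0391). Slc39a14 was 1.23-fold higher (log2 fold change 0.30, interval 0.11 to 0.50, edgeR's adjusted p = 0.0277) and Slc30a1 1.16-fold higher (log2 fold change 0.22, interval 0.08 to 0.36, adjusted p = 0.0295). The RVO and control samples of these 4 genes did not overlap, which was also the case for 52.5% of all genes tested. For Mt3 the log2 fold change was -0.17 (interval -0.50 to 0.17, edgeR's adjusted p = 0.389) and for Mtf1 it was 0.02 (interval -0.12 to 0.16, adjusted p = 0.782).

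None of these differences passed the threshold of 0.01 in edgeR, so 0 of 6 genes were called, where 3.34% of 16874 genes were. With a threshold of 0.05 there were 4 of 6, where 34.6% of all genes passed. An unadjusted p under 0.05 was also found for 4 of 6, and for 7940 of all 16874 genes. The calls at 0.05 depended on single samples, with 0 of 6 without RVO replicate 3, control replicate 1 or control replicate 3, 2 when RVO replicate 1 was left out, 3 for control replicate 2 and 4 for RVO replicate 2, while the count over all genes ranged from 62 (without control replicate 3) to 8779 (without RVO replicate 2). At 0.05 there were 2 of 6 with the replicate number as a block and 3 of 6 with the length and GC trend removed, where Mt1 had an adjusted p of 0.0622 in edgeR. DESeq2 called 1 of 6 at 0.01, which was Mt2 (adjusted p = 0.00193), where it called 4043 of 29736 genes. Unlike the 16874 genes in edgeR, these were not filtered on low counts beforehand, so the shares of the 2 methods are not alike. Without RVO replicate 2, edgeR called Slc39a14 (log2 fold change 0.34, adjusted p = 0.00382), where it called 6257 of 17199 genes. The median log2 fold change of the 6 genes was 0.26, beside 0.02 over all genes tested.

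**Figure D2:**
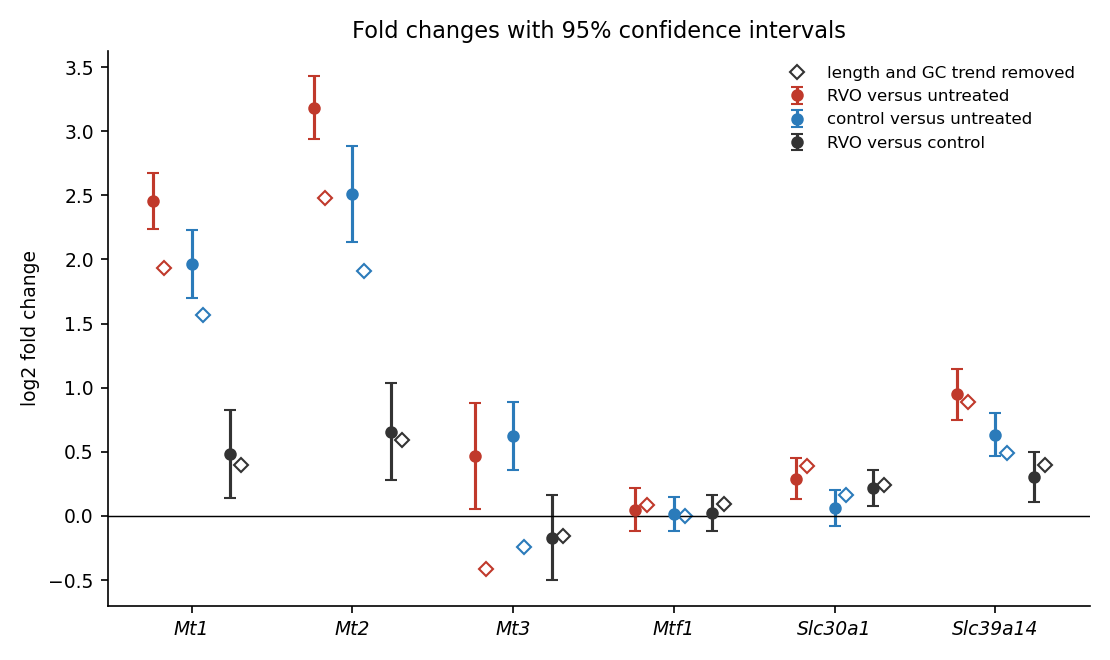
Log2 fold changes (vertical axis) of the 6 genes in each pairwise comparison of RVO, control and untreated eyes, with 95% confidence intervals from edgeR (filled circles and bars) and with the length and GC trend removed (open diamonds). The values for Mt2 are 3.18, 2.51 and 0.66 in RVO versus untreated, control versus untreated and RVO versus control eyes, while the intervals of Mtf1 include 0; the value of Mt3 against untreated eyes turns negative when the length and GC trend is removed.

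The plot of fold changes places the RVO and control effects of each gene next to each other. For Mt1, Mt2, Slc30a1 and Slc39a14 the interval of the RVO effect and that of the difference between RVO and control eyes were both above 0. Control samples lay between the other groups for Mt1, Mt2 and Slc39a14, and overlapped with untreated samples for Slc30a1.

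Because Mt1 and Mt2 were counted in the same libraries, their proportion does not depend on how libraries were scaled. It can still depend on trends with length and GC content and on reads of Gm45774 counted for Mt2. With that trend removed, Mt1 and Mt2 rose 3.83- and 5.59-fold in RVO eyes and 2.97- and 3.76-fold in control eyes over untreated eyes. Without this step the folds were 5.48 and 9.09 in RVO eyes and 3.90 and 5.70 in control eyes. Mt2 contributed 13.04%, 16.8% and 17.9% of the summed counts of both genes in untreated samples, 20.7%, 22.6% and 21.6% in control samples and 26.0%, 22.9% and 23.0% in RVO samples. The samples of the groups did not overlap, although RVO replicate 2 was only slightly above control replicate 2. The mean share was 15.9% ± 2.55 in untreated, 21.6% ± 0.915 in control and 24.0% ± 1.78 in RVO eyes (SD, n = 3). The share was thus higher by 8.06 percentage points in RVO and 5.71 in control than in untreated eyes, and by 2.35 in RVO than in control eyes. In two-sided exact permutation tests each difference had p = 0.1, also after Benjamini-Hochberg adjustment over the 3 tests, which is the smallest p that 3 against 3 samples allow.

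**Figure D3:**
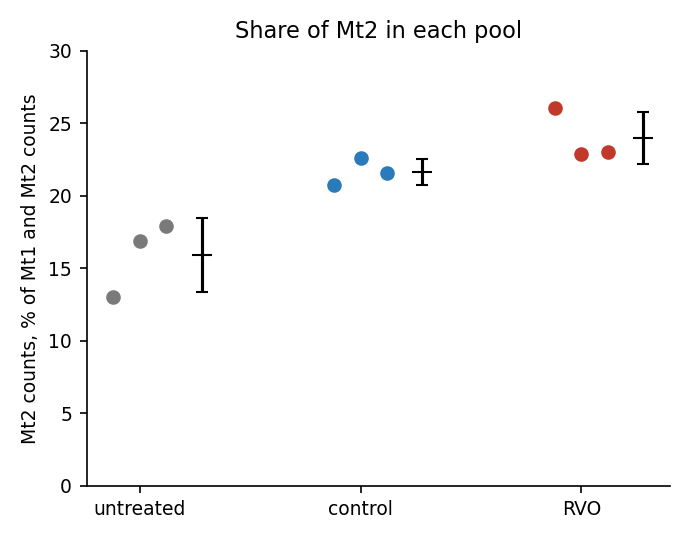
Mt2 as a percentage of the summed counts of Mt1 and Mt2 (vertical axis) in each pool of untreated, control and RVO eyes; bars give the mean and SD of 3 pools. The mean rises from 15.9% through 21.6% to 24.0%, and the highest control pool (22.6%) lies just below the lowest RVO pool (22.9%).

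In the plot of shares the gap between untreated and laser-treated samples is wider than that between control and RVO samples. Levels of different genes were compared per length, as CPM per kilobase of the principal transcript. In untreated eyes the order was Mt1 with 118 ± 8.12, Mt3 with 28.5 ± 5.21, Mt2 with 23.9 ± 3.35, Slc30a1 with 8.05 ± 0.126, Mtf1 with 6.67 ± 0.281 and Slc39a14 with 5.74 ± 0.255 CPM per kilobase, where the samples of Mt3 and Mt2 overlapped. In control eyes Mt2 was second with 135.6 ± 33.1 CPM per kilobase, above Mt3 with 43.4 ± 3.42, and Slc39a14 with 8.79 ± 0.559 overlapped with Slc30a1 with 8.30 ± 0.206. In RVO eyes Mt1 had 633 ± 60.4, Mt2 213.6 ± 0.751, Mt3 38.7 ± 7.13, Slc39a14 10.8 ± 0.738, Slc30a1 9.64 ± 0.224 and Mtf1 6.75 ± 0.168 CPM per kilobase, and no neighbours overlapped. By this measure Slc39a14 moved from the lowest place in untreated eyes to the fourth in RVO eyes, above the exporter Slc30a1. This place depends on the length used, as all annotated exons span 10550 bases in Slc39a14, 5244 in Slc30a1 and 8907 in Mtf1. Without division by length, Slc39a14 with 49.1 to 55.5 CPM and Slc30a1 with 49.2 to 51.3 CPM overlapped in RVO eyes.

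The other zinc transporters were examined as families. Among the exporters of the SLC30 family other than Slc30a1, 8 of 9 could be tested, all but Slc30a8. In RVO eyes 0 rose and 1 fell against untreated eyes, where 27.4% and 24.6% of all genes did, in control eyes 1 rose and 2 fell, where 27.2% and 25.2% did, and their median log2 fold changes were -0.12 and -0.13. The riser was Slc30a3, a transporter of synaptic vesicles (log2 fold change 1.12, edgeR's adjusted p = 0.000238), which was named after its value was seen and had 0.40 (adjusted p = 0.0873) with the length and GC trend removed. The one that fell in RVO eyes was Slc30a2, a transporter of intracellular vesicles, from 2.28 ± 0.404 CPM in untreated to 1.04 ± 0.317 CPM in RVO eyes (log2 fold change -1.12, edgeR's adjusted p = 0.00823). It had only 20 to 34 counts per untreated sample. Its call stayed with the length and GC trend removed (-1.51, edgeR's adjusted p = 0.00195). It was lost with library sizes as the only scaling and in DESeq2, which called 0 of 9 exporters in this comparison. In control eyes Slc30a5, a transporter of the secretory pathway, was lower by a log2 fold change of -0.45 (edgeR's adjusted p = 3.20e-05) and Slc30a4 by -0.30 (adjusted p = 0.000285). With the length and GC trend removed neither passed, and the values were -0.12 for Slc30a5 (edgeR's adjusted p = 0.0725) and 0.05 for Slc30a4. The exporters then counted 2 risen (Slc30a7 and Slc30a9) and 1 fallen in RVO eyes and 1 risen (Slc30a9) and 0 fallen in control eyes. Over all genes with that trend removed, 3110 of 15876 rose and 3889 fell in RVO eyes. In control eyes 2324 of 15582 rose and 3940 fell.

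Importers of the SLC39 family bring zinc into the cytosol. Without Slc39a14, 7 of 13 tested members rose and 1 fell in RVO eyes, and 4 of 12 rose and 1 fell in control eyes, each against untreated eyes, with median log2 fold changes of 0.42 and 0.41. Slc39a5 was among the 7, but it passed the filter on low counts there only through its RVO samples, so that only a rise was possible. In control versus untreated eyes it did not pass the filter and was not tested. Over all genes tested, 27.4% rose and 24.6% fell in RVO eyes, and 27.2% and 25.2% in control eyes. With the length and GC trend removed, 5 rose, Slc39a5 again among them, and 0 fell in RVO eyes, where 3110 and 3889 of 15876 genes did. In control eyes 5 rose and 2 fell, where 2324 and 3940 of 15582 genes did. Named after their values were seen, Slc39a3, Slc39a4 and Slc39a13 lost their RVO calls, Slc39a9 newly passed in both comparisons and Slc39a8 in control eyes. Slc39a13 turned on the log2 scale from 0.42 to -0.22 in RVO eyes. In control eyes it turned from 0.17 to -0.49 and was then called as lower. Slc39a1, an importer of the plasma membrane, rose from 14.9 ± 1.55 CPM in untreated to 52.1 ± 1.61 CPM in RVO eyes (3.58-fold, edgeR's adjusted p = 6.11e-06) and to 40.2 ± 4.88 CPM in control eyes (2.73-fold, adjusted p = 3.92e-07). Slc39a7, which releases zinc from the endoplasmic reticulum, rose from 3.59 ± 1.06 CPM to 16.6 ± 1.80 CPM in RVO eyes (4.74-fold, edgeR's adjusted p = 6.25e-05) and to 11.1 ± 0.564 CPM in control eyes (3.15-fold, adjusted p = 3.25e-06). These rises of Slc39a1 and Slc39a7 were also called with the length and GC trend removed, where Slc39a7 rose 2.95-fold in RVO and 2.06-fold in control eyes. The locus of Slc39a7 overlaps that of Gm20427 on the same strand. Slc39a5 had 0 or 1 counts in untreated samples and reached 0.713 ± 0.0741 CPM in RVO eyes, which was at least 2.96-fold higher when computed against a floor of 3 counts per library. Slc39a11 rose 3.14-fold in RVO eyes (edgeR's adjusted p = 8.71e-05) and 2.46-fold in control eyes (adjusted p = 1.17e-05), and its locus overlaps those of Cog1 and Sstr2. The fourth importer that rose in control eyes, named after its value was seen, was Slc39a3 (log2 fold change 0.85, edgeR's adjusted p = 1.12e-05), with 0.20 (adjusted p = 0.0374) once the length and GC trend was removed. Among the importers that fell were Slc39a10 in RVO eyes (log2 fold change -0.55, edgeR's adjusted p = 0.00213), with -0.34 and an adjusted p of 0.0124 once the trend was removed, and Slc39a12 in control eyes (log2 fold change -0.91, adjusted p = 0.00023).

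Between RVO and control eyes, 0 of 8 exporters and 0 of 13 importers were called in edgeR, where 3.34% of all genes were, with median log2 fold changes of 0.08 and 0.23. At an unadjusted p under 0.05 there were 5 exporters and 8 importers in edgeR, where 7940 of all 16874 genes were. DESeq2 called 2 of 9 exporters and 2 of 13 importers at 0.01. Of all 29736 genes in DESeq2, those with low counts included, 4043 were called and 7482 had an unadjusted p under 0.05. Of 6 genes of copper handling (Slc31a1, Slc31a2, Atp7a, Atp7b, Atox1 and Ccs), 3 rose in RVO and 2 in control eyes against untreated eyes, where 27.4% and 27.2% of all genes did, 0 fell, and 0 were called between RVO and control eyes in edgeR or DESeq2, where 2 had an unadjusted p under 0.05 in each and 3.34% of all genes were called in edgeR. Named after their values were seen, the copper chaperones Atox1 and Ccs had log2 fold changes of 1.29 and 1.27 in RVO eyes (edgeR's adjusted p = 5.33e-05 and 0.000114) and of 1.19 and 1.24 in control eyes (adjusted p = 5.87e-07 and 1.28e-06), and the copper exporter Atp7a rose in RVO eyes with 0.64 (adjusted p = 0.00283). With the length and GC trend removed, Atox1 and Ccs had 0.44 and 0.57 in RVO and 0.40 and 0.65 in control eyes, all still past the threshold. The remaining metallothionein, Mt4, known from stratified epithelia, had 0 or 1 counts per sample and was not tested.

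**Figure D4:**
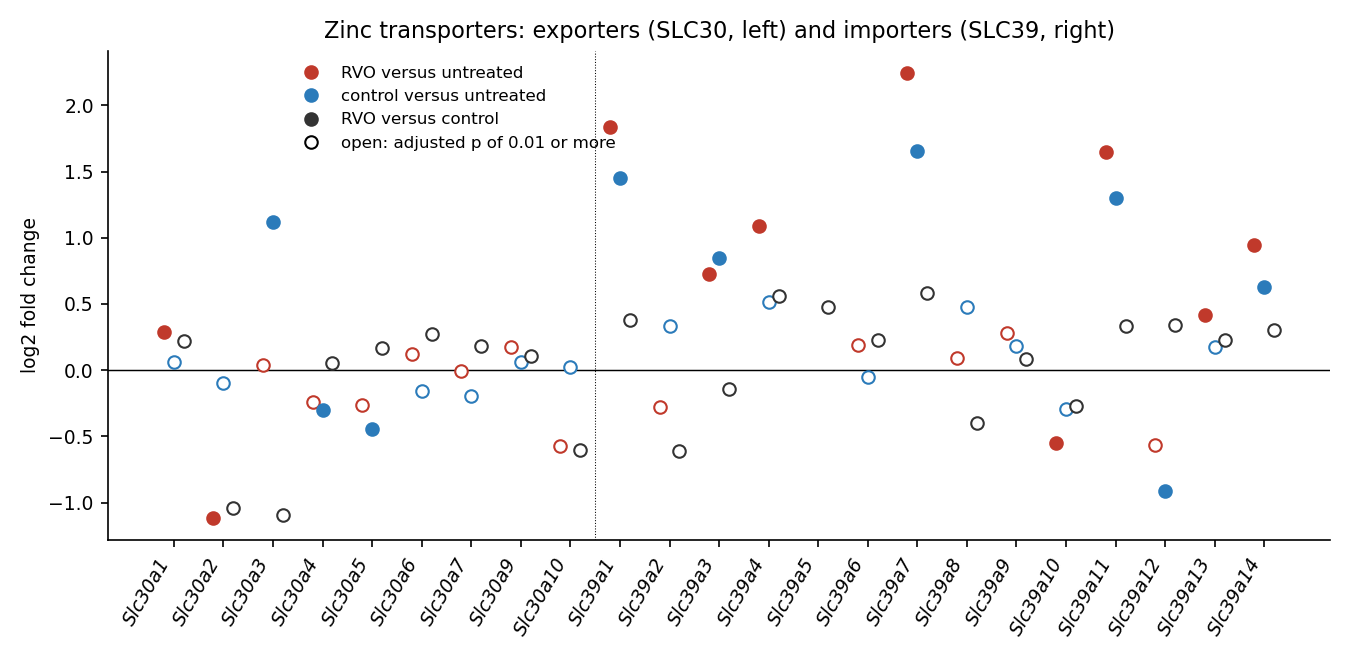
Log2 fold changes (vertical axis) of the zinc exporters (SLC30, left of the dotted line) and importers (SLC39, right) in the 3 comparisons; filled points passed an adjusted p under 0.01, open points did not, and Slc30a8 and the values of Slc39a5 against untreated eyes are not drawn. Slc39a7 and Slc39a1 lie highest in RVO versus untreated eyes, at 2.25 and 1.84, above Slc39a14 at 0.95.

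The plot of transporters shows that all points for RVO versus control eyes are open. Genes whose pattern was most like that of each gene were ranked by Pearson's r of log2 CPM over the 9 samples, which form 3 groups, among 17111 genes. For Mt1 they were S100a16 (r = 0.997), Plcd1 (0.995) and Atp5d (0.995), for Mt2 Mvp (0.997), Phf13 (0.997) and Steap4 (0.996), and for Slc39a14 Cnnm4 (0.999), Mfsd5 (0.998) and Tead3 (0.998). For Slc30a1 they were Tiparp (0.991), Spg21 (0.986) and Pkp2 (0.984), and for Mt3 Ap2s1 (0.993), Wnt10a (0.987) and Sfxn3 (0.963). Steap4, a metalloreductase, had mean levels of 0.991, 12.1 and 26.1 CPM in untreated, control and RVO eyes, and Tiparp, a target of the aryl hydrocarbon receptor, had 20.1, 23.2 and 36.7 CPM. The closest genes to Mtf1 were Srrd (0.913), Tmem220 (0.891) and Phf7 (0.867), whose levels varied little between groups. These values describe likeness over samples that share library depth and group, and carry no test.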

How the data were processed

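RNAseq reads of 9 retinal samples were mapped by the authors with STAR (2.5.2b in the submitters' processing notes) and counted per gene with featureCounts (Subread 1.5.1) on Gencode vM11 (build GRCm38). The authors deposited raw counts without normalization. The libraries were strand-specific in the paper's protocol. The use of strand in counting and of reads with several matches is not given in the sources used here. This leaves Mt2, Mtf1 and Slc30a1 uncertain where an antisense gene overlaps.

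Pairs of groups were compared with edgeR 4.0.16 under R 4.3.3 (filterByExpr, TMM, quasi-likelihood test), fitting only the 6 samples of the pair. P-values were adjusted over all genes tested by the Benjamini-Hochberg method with a threshold of 0.01. The procedure was tested on simulated counts. Alternatives were DESeq2 1.42.0, other scalings, no filter, all samples in 1 fit, the replicate number as a block, removal of length and GC trends, a threshold of 0.05 and each sample left out in turn. All 6 genes are named throughout. List genes are named if they are among the 3 largest rises or falls that passed. The genes and lists were chosen with earlier results of these data known. Total counts are given with the results, and low genes are measured least precisely in untreated samples. Coordinates were taken from GENCODE vM21 on the same build, where 46366 names matched, and promoters from RefSeq.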

Additional observations from a re-analysis of the deposited data

How the results depend on the processing

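Of the values of single genes under the alternatives, 227 kept their direction and side of the threshold, 13 newly passed, 6 no longer passed and 6 turned. Mt1, Mt2 and Slc39a14 kept their direction in each comparison and their calls against untreated eyes under all alternatives. The number of the 6 genes called was 3 to 5 under the alternatives for RVO and for control versus untreated eyes, where it was 4. Between RVO and control eyes it was 0, 1 with DESeq2, without a filter or with all 9 samples in the fit (Mt2 each time), 0 to 1 when samples were left out, of which the 1 was Slc39a14 without RVO replicate 2, and 4 at an adjusted p under 0.05. With the length and GC trend removed, Mt3 turned to -0.42 in RVO and -0.24 in control versus untreated eyes. Mtf1 turned in control versus untreated eyes to -0.0036 with all 9 samples, to -0.0037 with that trend removed and to -0.033 without untreated replicate 2 (range with each sample left out -0.033 to 0.029), and in RVO versus control eyes to -0.0091 without RVO replicate 1 (range -0.0091 to 0.039). With library sizes as the only scaling, the median over all genes moved to 0.22 in RVO and 0.19 in control versus untreated eyes on the log2 scale, from 0.01 in both, and Mt3 in RVO eyes (0.68) and Slc30a1 in control eyes (0.24) then passed. Mtf1 then had 0.26 in RVO and 0.19 in control versus untreated eyes (edgeR's adjusted p = 0.0179 and 0.0201). With the replicate block, 3, 4 and 0 genes were called in RVO versus untreated, control versus untreated and RVO versus control eyes, and Slc30a1 in RVO versus untreated eyes had an adjusted p of 0.0202 in edgeR. Untreated eyes came from other mice, so a block cannot pair them with laser-treated eyes. For RVO and control eyes the labels do not say that equal numbers mark the same mice. Between these, the deviations of equally numbered samples correlated at -0.131, -0.148 and 0.0711, and no RVO sample correlated best with the control sample of its number. Over all genes, calls between RVO and control eyes numbered 563, but 4043 with DESeq2, 3853 with all 9 samples, 3309 without a filter, 1351 with the trend removed, 892 with library size only, 0 with the replicate block, 0 to 6257 when samples were left out and 5836 at an adjusted p under 0.05. The causes were not tested. Slc39a5 and Mt4 had at most 1 count in each untreated sample, and whether depth or low expression limited them was not tested.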
